A study of Mus musculus with 15 samples.

Results

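The 10 genes Cd3d, Cd3e, Cd3g, Cd4, Cd8a, Cd8b1, Gzma, Gzmk, Nkg7 and Lck mark T cells and natural killer (NK) cells, and they were followed in mouse kidney RNA at 3, 12 and 24 months of age. They were chosen by name, and all 10 were found among the 33058 genes of the deposited table. The value of a gene was the sum over its transcripts of FPKM, the fragments per kilobase of transcript scaled to the size of the library. Between 1 and 7 transcripts were summed per gene, and all 31 were known reference transcripts.

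T cells recognise antigen through a receptor whose antigen-binding chains are held in a complex with the CD3 chains, which carry the signal into the cell. CD4 and CD8 are co-receptors that bind the presenting molecule, and the kinase Lck, docked on their tails, phosphorylates the CD3 chains. Cytotoxic T cells and NK cells store granzymes in granules and release them onto target cells. The kidney holds few lymphocytes beside its tubular epithelium, and their number in tissue is known to rise with age in many organs.

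The mice were male C57BL/6 animals by their labels (C57BL/6J in the methods of the study), 5 per age. For each mouse 1 library of kidney tissue was sequenced. No transgene is described, and no drug treatment other than urethane anaesthesia before collection. The methods of the study describe mice of 3 and 24 months only. By the methods the tissue was a part of a divided kidney, and the region is not stated. They are named here by the replicate numbers of the labels, 5 to 9 at 3 months, 17 to 21 at 12 months and 31 to 35 at 24 months. The titles of all 15 samples carry a prefix for 3 months, which conflicts with the age labels of the older mice. The ages used here follow the age labels, which the names of the deposited columns match. The kidney was not sorted into cell types, and rinsing of blood from the vessels is not described, so blood lymphocytes can be part of the sample. In such bulk RNA, fewer cells of a type and less RNA per cell cannot be told apart.

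The aligned bases per library lay between 5.03 and 6.13 Gb at 3 months, between 5.84 and 8.03 Gb at 12 months and between 6.07 and 7.33 Gb at 24 months. The shallowest library was 3-month replicate 8. The median depths were 6.04, 7.17 and 7.00 Gb in order of age, so depth was not equal between the ages. The 9 kidney epithelium markers, which include the phosphate carrier Slc34a1, summed to between 2369 and 3049 FPKM, with each of them above 0 in each age. The 10 T and NK cell genes together summed to between 2.17 and 11.1 FPKM per mouse. Behind that sum stood between 117 and 644 reads per mouse, counting 1 read as 151 aligned bases, so single genes rested on few reads.

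The 10 genes differed in level by about an order of magnitude. Cd3e was highest, with a median over the 15 mice of 1.21 FPKM, followed by Lck at 1.08 and Nkg7 at 0.985. Cd4 (0.604), Cd3g (0.449), Cd8a (0.369), Cd8b1 (0.249) and Cd3d (0.192) came next. The granzymes Gzma (0.117) and Gzmk (0.0934) were lowest. Of the 9 steps between neighbours in this order, the step from Nkg7 to Cd4 alone was larger than 1 SD of the difference between the genes within a mouse, and Nkg7 was above Cd4 in 13 of 15 mice. The other neighbours did not differ beyond their spread.

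**Figure D1:**
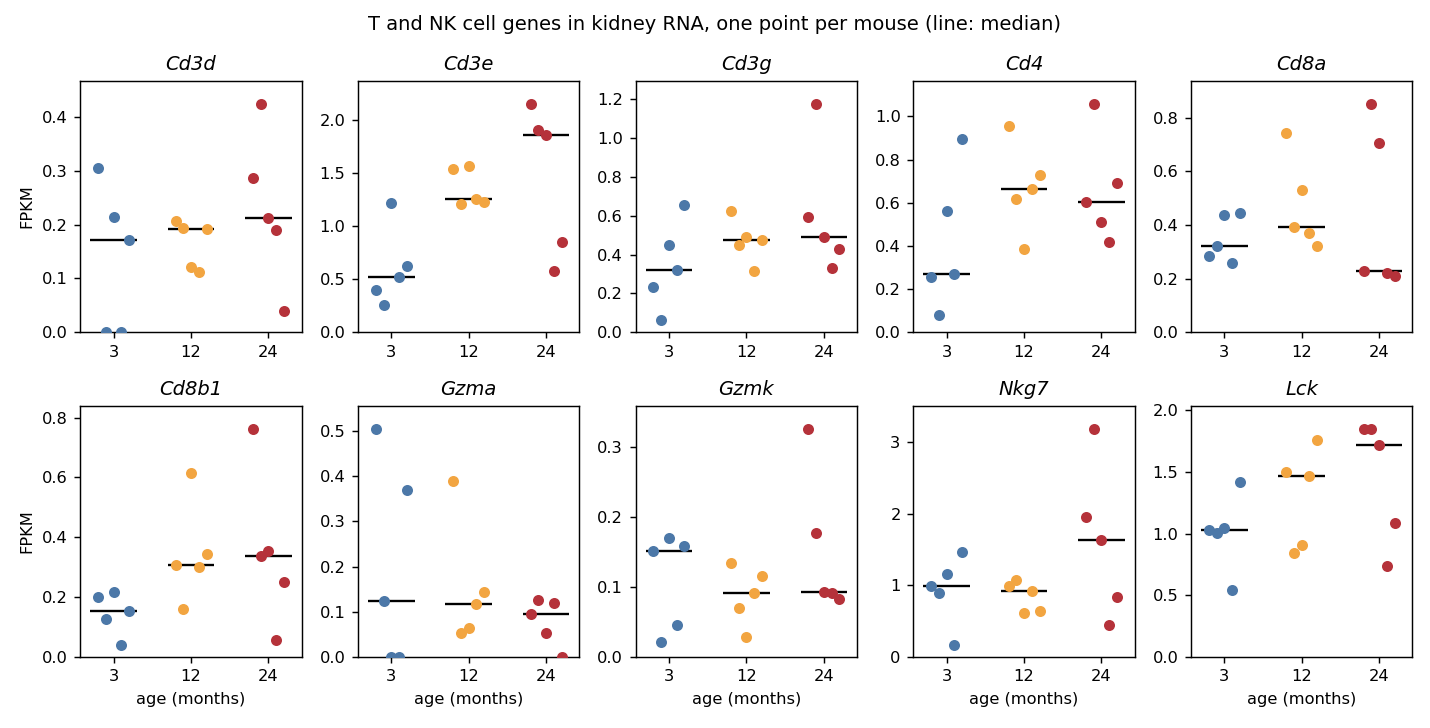
FPKM (vertical axis, scaled for each gene from 0) of the 10 T and NK cell genes at 3, 12 and 24 months (horizontal axis), with 1 point per mouse and a line at the median of the 5 mice. The ages overlap for each gene, and Cd3e has 4 of its 5 values at 3 months below all 5 values at 12 months.

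Cd3e encodes CD3 epsilon, which pairs with both CD3 gamma and CD3 delta in the receptor. Its FPKM was 0.395, 0.254, 1.21, 0.522 and 0.625 in 3-month replicates 5 to 9. It was 1.54, 1.21, 1.56, 1.26 and 1.22 in 12-month replicates 17 to 21, and 2.15, 1.901, 1.86, 0.575 and 0.850 in 24-month replicates 31 to 35. At 3 months 1 mouse, replicate 7, reached the 12-month range, and at 24 months replicates 34 and 35 fell back into the 3-month range while the other 3 mice were the highest of all 15. The means were 0.602 ± 0.369 at 3 months, 1.36 ± 0.176 at 12 months and 1.47 ± 0.705 FPKM at 24 months (SD, n = 5 each).

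The full-length Cd3e transcript ENSMUST00000102832 carried 76.1% of the gene's FPKM. A short transcript of 517 bases, ENSMUST00000214582, took 0.317 FPKM in 3-month replicate 5, 0.480 in replicate 9 and 1.5003 in 24-month replicate 31, and it was listed at 0 in 9 of 15 mice. In the first pair of these mice the full-length transcript was listed at 0. Because a read counts for more FPKM on a short transcript, the Cd3e value of these mice depends on that division. In reads per Gb of aligned bases, which does not use transcript length, the Cd3e medians were 4.03, 12.7 and 12.8 at 3, 12 and 24 months.

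Cd3g encodes CD3 gamma. Its FPKM was 0.231, 0.0638, 0.449, 0.323 and 0.655 in replicates 5 to 9, then 0.623, 0.448, 0.493, 0.316 and 0.474 in replicates 17 to 21, and 0.593, 1.18, 0.490, 0.332 and 0.427 in replicates 31 to 35. The ages overlapped broadly, and 24-month replicate 32 was the highest mouse. Cd3d encodes CD3 delta, and its median over the 15 mice was lower than that of Cd3g (0.192 against 0.449 FPKM). In 3-month replicate 5 Cd3d was the higher gene. It was 0.304, 0, 0.213, 0 and 0.172 FPKM at 3 months, between 0.112 and 0.207 at 12 months, and 0.286, 0.424, 0.212, 0.189 and 0.0400 at 24 months. The 2 mice listed at 0, replicates 6 and 8, were both 3 months old. Their libraries were also the shallowest of the 15, at 5.59 and 5.03 Gb. A listed 0 need not mean absence, since Cd3d rested on at most 21.6 reads in any mouse.

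The 3 CD3 genes lie side by side on chromosome 9 (GRCm38). Cd3g (44969572 to 44980431, minus strand) and Cd3d (44981786 to 44987339, plus strand) are transcribed away from each other from starts 1355 bases apart, and Cd3e (44998740 to 45009627, minus strand) ends the cluster, which spans 40056 bases. Within Cd3e the annotation lists a clone-named gene on the opposite strand and another on the same strand, with mean FPKM of 0.113 and 0.0399. Whether the counting used strand is not stated, so reads of these genes may not be fully separated from Cd3e. The promoters are shown because the chains of one complex differed in level while sharing a locus. Each sequence, from RefSeq (GRCm38.p6), runs 5′ to 3′ along the gene from 250 bases before to 50 bases after its start. Capitals mark CAGGAA or its complement TTCCTG, one form of the site bound by ETS factors, and TGTGGT or ACCACA, the core bound by RUNX factors. The shorter ETS core GGAA (complement TTCC) was not searched, and it also stands in unmarked stretches. Both families act in lymphocytes.
Cd3g, chr9:44980382-44980681, minus strand: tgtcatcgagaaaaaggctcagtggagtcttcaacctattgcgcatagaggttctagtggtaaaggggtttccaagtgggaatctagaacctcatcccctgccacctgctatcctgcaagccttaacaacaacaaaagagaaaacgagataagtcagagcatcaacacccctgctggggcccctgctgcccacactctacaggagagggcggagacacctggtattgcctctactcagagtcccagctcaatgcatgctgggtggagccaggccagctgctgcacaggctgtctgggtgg
Cd3d, chr9:44981536-44981835, plus strand: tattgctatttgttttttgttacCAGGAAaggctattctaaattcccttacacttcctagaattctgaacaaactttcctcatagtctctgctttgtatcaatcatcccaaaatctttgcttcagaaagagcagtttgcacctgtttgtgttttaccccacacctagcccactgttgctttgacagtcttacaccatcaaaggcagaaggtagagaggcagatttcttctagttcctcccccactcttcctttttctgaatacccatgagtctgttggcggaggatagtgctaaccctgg
Cd3e, chr9:45009562-45009861, minus strand: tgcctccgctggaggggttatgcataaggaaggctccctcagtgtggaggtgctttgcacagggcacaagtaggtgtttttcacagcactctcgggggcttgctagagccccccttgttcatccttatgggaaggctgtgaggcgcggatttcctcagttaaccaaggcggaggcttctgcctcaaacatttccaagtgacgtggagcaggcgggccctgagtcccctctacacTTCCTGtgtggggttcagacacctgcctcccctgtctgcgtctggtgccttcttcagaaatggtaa
The marked ETS form occurred once in Cd3d, at position -227, and once in Cd3e, at -16, with the first transcribed base counted as 0. Neither of the marked motifs occurred in the Cd3g window, which does hold the shorter letters GGAA and TTCC. A promoter was listed for 8 of the 10 genes (9 promoters, 2 of them of Lck), and Cd4 and Cd8b1 had none. The marked ETS form stood in 5 of these 9 and in 30.6% of all 32851 promoters of the table. The RUNX core stood in 3 of 9 and in 16.8% of all.

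Cd4, the co-receptor of helper T cells, is also expressed by some macrophages and dendritic cells. Its FPKM was 0.254, 0.0782, 0.561, 0.270 and 0.898 in replicates 5 to 9, then 0.953, 0.617, 0.385, 0.662 and 0.730 in replicates 17 to 21, and 0.604, 1.06, 0.511, 0.418 and 0.692 in replicates 31 to 35. At 3 months 3 mice lay below all older mice, and replicates 7 and 9 lay within the older range.

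Cd8a and Cd8b1 encode the alpha and beta chains of CD8, the co-receptor of cytotoxic T cells. The alpha chain can also pair with itself on NK cells and dendritic cells. Cd8a was 0.285, 0.323, 0.437, 0.259 and 0.446 FPKM at 3 months, 0.743, 0.391, 0.532, 0.369 and 0.323 at 12 months, and 0.229, 0.851, 0.704, 0.221 and 0.210 at 24 months. The old mice fell apart into 2 high mice, replicates 32 and 33, above the whole 3-month range, and 3 mice below it. Cd8b1 was 0.199, 0.127, 0.216, 0.0405 and 0.155 FPKM at 3 months, 0.306, 0.158, 0.615, 0.302 and 0.344 at 12 months, and 0.764, 0.338, 0.354, 0.0559 and 0.249 at 24 months. All but 1 of the 12-month mice and all but 1 of the 24-month mice were above the highest 3-month mouse. Both genes lie on chromosome 6 on the plus strand, with 35933 bases between the end of Cd8b1 and the start of Cd8a.

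Lck is transcribed from a distal and a proximal start 15250 bases apart on chromosome 4, which are known to be used at different stages of T cell life, the proximal one mainly in the thymus. The gene's FPKM was 1.03, 1.003, 1.04, 0.543 and 1.42 in replicates 5 to 9. It was 1.502, 0.846, 0.904, 1.47 and 1.76 in replicates 17 to 21, and 1.85, 1.85, 1.72, 0.741 and 1.08 in replicates 31 to 35. As for Cd3e, the 3 highest 24-month mice were replicates 31 to 33, and replicates 34 and 35 lay within the 3-month range.

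The promoters of both starts are shown with the same marks, since the transcripts divided between them. Both lie on the minus strand.
Lck distal start, chr4:129573592-129573891: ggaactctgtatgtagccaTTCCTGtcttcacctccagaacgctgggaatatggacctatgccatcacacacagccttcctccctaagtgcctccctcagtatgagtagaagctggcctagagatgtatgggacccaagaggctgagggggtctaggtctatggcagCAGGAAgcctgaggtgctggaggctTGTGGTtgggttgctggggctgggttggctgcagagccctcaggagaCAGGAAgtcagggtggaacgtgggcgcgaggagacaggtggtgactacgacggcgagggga
Lck proximal start, chr4:129558323-129558622: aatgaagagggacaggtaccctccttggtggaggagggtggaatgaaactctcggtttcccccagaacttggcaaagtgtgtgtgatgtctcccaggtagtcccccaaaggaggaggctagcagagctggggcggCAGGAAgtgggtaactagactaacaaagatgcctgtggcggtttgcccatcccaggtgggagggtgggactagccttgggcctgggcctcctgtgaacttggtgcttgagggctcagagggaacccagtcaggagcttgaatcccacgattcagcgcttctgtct
The distal window held the marked ETS form at -231, -83 and -11 and the RUNX core at -58. The proximal window held the marked ETS form at -115. These matches are descriptions of the letters, not of binding.

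The 1 long transcript from the distal start was at 0.0110, 0.00712, 0.390, 0.00452 and 0.540 FPKM in replicates 5 to 9. It was 1.31, 0.534, 0.417, 0.173 and 0.934 in replicates 17 to 21, and 0.901, 0.727, 0.00155, 0.0152 and 0 in replicates 31 to 35. The 2 long transcripts from the proximal start were at 0.250, 0.593, 0.406, 0.159 and 0.686 FPKM, at 0, 0, 0.293, 0.198 and 0.299, and at 0.0719, 0.667, 0.866, 0.549 and 0.232 in the same order of mice. The distal transcript was thus the higher one in 0 of 5 mice at 3 months, 4 of 5 at 12 months and 2 of 5 at 24 months. This is a description of how StringTie divided the reads, with no test. The long transcripts share nearly all exons, and 4 shorter transcripts took as much as 1.1003 FPKM in a mouse.

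**Figure D2:**
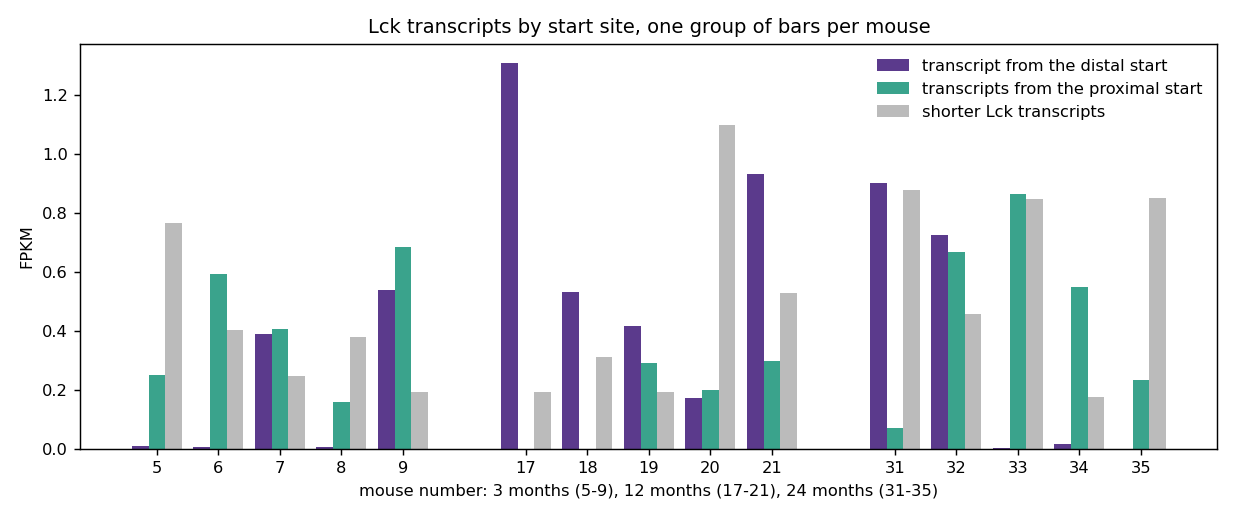
FPKM (vertical axis) of Lck transcripts in each of the 15 mice (horizontal axis, by replicate number), with bars for the transcript from the distal start, the transcripts from the proximal start and the shorter transcripts. The distal bar is the taller of the first pair in 4 of 5 mice at 12 months and in 0 of 5 at 3 months.

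Nkg7, a granule protein of NK cells and cytotoxic T cells, varied most in FPKM among the old mice. It was 0.985, 0.889, 1.16, 0.170 and 1.47 FPKM in replicates 5 to 9, then 0.989, 1.07, 0.610, 0.922 and 0.637 in replicates 17 to 21, and 1.96, 3.20, 1.64, 0.448 and 0.836 in replicates 31 to 35. Replicates 31 to 33 were above all 10 younger mice, and replicate 34 was below all 12-month mice. The means were 0.935 ± 0.481, 0.845 ± 0.209 and 1.61 ± 1.07 FPKM (SD, n = 5 each).

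The granzymes Gzma, a tryptase of NK cells and cytotoxic T cells, and Gzmk, a related enzyme also found in memory T cells, lie 70629 bases apart on chromosome 13. Gzma was 0.506, 0.123, 0, 0 and 0.370 FPKM at 3 months, 0.389, 0.0524, 0.0642, 0.117 and 0.144 at 12 months, and 0.0939, 0.125, 0.0536, 0.119 and 0 at 24 months. These values stand for at most 18 reads in a mouse. High values occurred in 2 mice of 3 months and 1 of 12 months, and none of the 24-month mice exceeded 0.125. Gzmk was 0.151, 0.0210, 0.170, 0.0460 and 0.158 FPKM at 3 months, 0.134, 0.0698, 0.0288, 0.0908 and 0.116 at 12 months, and 0.327, 0.177, 0.0934, 0.0919 and 0.0827 at 24 months. The ages overlapped, with 24-month replicates 31 and 32 the highest. Esm1, a gene of endothelial cells at a mean of 3.29 FPKM, lies on the opposite strand inside the span of Gzmk.

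The same mice tended to be high or low for several genes. At 3 months replicate 9 was the highest of its age for 5 genes, while replicates 6 and 8 were lowest for 5 and 6. At 12 months replicate 17 was highest for 6. At 24 months replicate 32 was highest for 7 and replicate 31 for the other 3, and replicates 34 and 35 were lowest for 6 and 4. The summed FPKM of the 10 genes was 4.34, 2.88, 5.46, 2.17 and 6.37 at 3 months, 7.38, 5.06, 5.31, 5.62 and 5.95 at 12 months, and 8.86, 11.1, 7.64, 3.19 and 4.47 at 24 months. The old mice therefore spanned both the highest sums and sums within the young range.

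To ask which genes differed with age, log2(FPKM + 1) was compared with limma for each pair of ages, with Benjamini-Hochberg adjustment over all genes tested. Fold changes on this scale understate those of genes far below 1 FPKM. Between 24 and 3 months 0 of the 10 genes passed an adjusted p of 0.05, where 1.22% of 31755 genes did. At an unadjusted p under 0.05 there was 1 of 10, Cd3e, against 14.9% of all genes. With an absolute fold change above 1 on the log2 scale required as well, there were 0, against 0.523% of all genes. On log2(FPKM + 1) that limit was out of reach for Cd3d, Cd8a, Cd8b1, Gzma and Gzmk. Their FPKM was at most 0.851 in any mouse, so the 0 carries no information about them. Cd3e was higher by 0.60 on the log2 scale with an SE of 0.23 (95% confidence interval 0.07 to 1.12, limma adjusted p = 0.268). The 10 fold changes had a median of 0.23, while that of all genes was 0.02. They were positive for 9 genes and negative for Gzma (-0.14), where 63.0% of all genes were positive. The ages were separate for 0 of 10 genes, while 3.82% of all genes had all old mice above all young mice and 0.910% had them below.

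The intervals give the range of differences that the mice allow. For Nkg7 the 24-month to 3-month fold of FPKM + 1 lay between 0.808 and 2.09, and for Lck between 0.915 and 1.60. For Cd8a it lay between 0.856 and 1.29 and for Gzma between 0.763 and 1.09. These bounds cover no change as well as changes in either direction, and the adjusted p-values of the 10 genes ran from 0.268 to 0.815 (limma).

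Between 12 and 3 months 0 of the 10 genes passed the adjusted threshold, where 0.250% of 31637 genes did. At an unadjusted p under 0.05 there were 2 of 10, against 14.3% of all genes. They were Cd3e, higher by 0.58 (SE 0.15, limma adjusted p = 0.135), and Cd8b1, higher by 0.22 (SE 0.08, limma adjusted p = 0.262). With the fold change limit as well there were 0, against 0.499%, and the genes below 1 FPKM in all mice could not reach that limit. For Cd3e the lowest 12-month mouse (1.210 FPKM, replicate 18) was just under the highest 3-month mouse (1.213 FPKM, replicate 7). The median fold change was 0.13, with all genes at 0.02, and 7 genes were positive, where 64.0% of all genes were.

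Between 24 and 12 months 0 of the 10 genes passed, where 0.00310% of 32282 genes did. At an unadjusted p under 0.05 there were 0 of 10, against 6.43% of all genes (limma). With the fold change limit there were 0, against 0.170%, and the genes below 1 FPKM in all mice could again not reach it. The fold changes were positive for 6 genes, where 48.6% of all genes were positive. The smallest adjusted p was 0.820. Nkg7 had the largest difference, 0.41 (95% confidence interval -0.18 to 1.005), and that of Cd3e was 0.02 (-0.44 to 0.47). The 3 comparisons share mice, so their values for a gene are not independent.

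**Figure D3:**
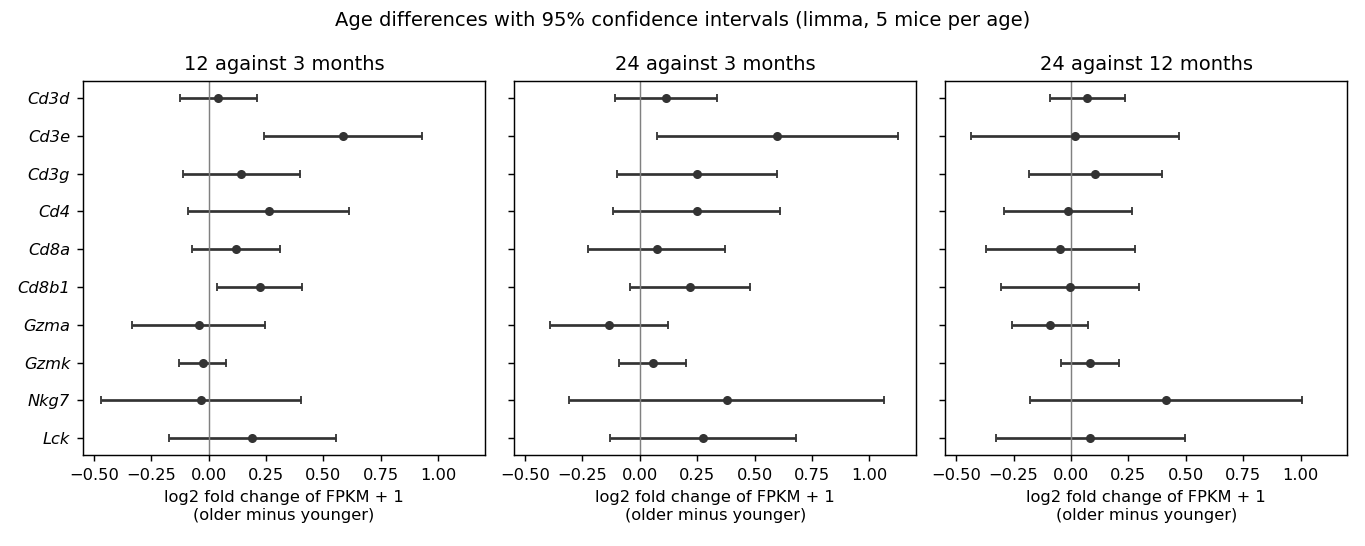
Log2 fold change of FPKM + 1, older minus younger (horizontal axis), of the 10 genes (vertical axis) in the 3 comparisons, as points with 95% confidence intervals from limma. The intervals of Cd3e at 12 and 24 months against 3 months, and of Cd8b1 at 12 against 3 months, lie above 0, and 0 of the 30 points passed an adjusted p of 0.05.

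Ratios between the genes ask whether they moved in proportion, using log2 of the ratio of FPKM + 0.1. The mean log2 ratio of Gzmk to Gzma was -0.21 at 3 months, -0.32 at 12 months and 0.49 at 24 months, and Gzmk was above Gzma in 2, 1 and 4 of 5 mice. The 24-month mean was higher than the 12-month mean by 0.81 (exact permutation test, 2-sided, p = 0.0317, adjusted p = 0.286 over the 9 tests). The smallest p that 5 against 5 mice allow is 0.00794. The mean log2 ratio of Cd8a to Cd4 was 0.03, -0.43 and -0.61 in order of age, and that of Cd8a to Cd8b1 was 0.89, 0.39 and 0.28. Cd8a exceeded Cd8b1 in 5, 3 and 3 of 5 mice. For these 2 ratios the exact permutation p-values were 0.135 or higher, with adjusted p-values of at least 0.464.

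Other genes of T and NK cells were followed in 5 lists beside the 10. Of 20 genes of the T cell receptor complex, its co-receptors and signalling, 1 was higher at 24 than at 3 months at an adjusted p under 0.05 and 0 were lower, where 1.22% of all genes passed in either direction, with a median fold change of 0.11. That gene was Cd27, a co-stimulatory receptor of T cells that is also carried by memory B cells. It was 0.872, 1.59, 1.26, 0.925 and 0.828 FPKM at 3 months, 2.03, 2.73, 1.70, 3.59 and 3.46 at 12 months, and 2.98, 3.99, 4.25, 2.54 and 3.00 at 24 months. All young mice were below all older mice, a separation that 3.82% of all genes showed at 24 months and 3.45% at 12 months. The 24-month difference from 3 months was 1.05 on the log2 scale (SE 0.15, limma adjusted p = 0.0183), and that of 12 months was 0.80 (adjusted p = 0.0957).

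The receptor's own chains had other values. Cd247, the zeta chain, differed by 0.09 between 24 and 3 months (adjusted p = 0.721), Trac, the constant part of the alpha chain, by 0.23 (adjusted p = 0.701) and Trbc1 and Trbc2, the alternative constant parts of the beta chain, by -0.12 (adjusted p = 0.811) and 0.47 (adjusted p = 0.530). The delta chain gene Trdc differed by 0.0026 (adjusted p = 0.953). None of these 5 passed the test with limma, and all 5 overlapped between the ages. Trac was 1.40, 0.777, 1.40, 0.439 and 0.316 FPKM at 3 months and 0.615, 2.29, 0.982, 1.58 and 0.566 at 24 months.

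Of 12 transcription factors of T and NK cells, 1 was higher and 0 were lower at 24 months, with a median fold change of 0.12. Of all genes 1.22% passed in either direction. Tox, a factor of developing and of persistently stimulated T cells, was between 0.373 and 0.614 FPKM at 3 months, 0.786 and 1.34 at 12 months, and 1.03 and 1.31 at 24 months, without overlap of the young mice with the older ones. It was higher by 0.60 (SE 0.08, limma adjusted p = 0.0178) at 24 months and by 0.57 (adjusted p = 0.0599) at 12 months, each against 3 months. Foxp3, the factor of regulatory T cells, differed by 0.18 between 24 and 3 months (unadjusted p = 0.00453, adjusted p = 0.116, limma).

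Of 14 NK cell receptors 1 was higher at 24 months and 0 were lower, where 1.22% of all genes passed, with a median fold change of 0.08. Klrk1 (NKG2D), an activating receptor of NK cells and CD8 T cells, was between 0.165 and 0.391 FPKM at 3 months and between 0.531 and 0.899 at 24 months, higher by 0.43 (SE 0.08, limma adjusted p = 0.0346). This call was the least stable of the 3, since it held in 4 of 17 other settings, with adjusted p between 0.0237 and 0.105, and among the fits without 1 mouse only in that without 24-month replicate 32, while Cd27 and Tox passed in 17 of 17. Klrb1c (NK1.1) was between 0.0220 and 0.215 FPKM at 3 months and between 0.0287 and 0.235 at 24 months.

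Of 10 cytotoxic effectors 0 passed in either direction, where 1.22% of all genes did, with a median of 0.10. At an unadjusted p under 0.05 (limma) 1 of 10 was higher, near the 11.4% of all genes. It was Cst7, which encodes cystatin F, higher by 0.29 (limma adjusted p = 0.162). Perforin (Prf1) was between 0.0763 and 0.311 FPKM at 3 months and between 0.0698 and 0.211 at 24 months. Of 12 genes of homing and tissue residence 0 passed and 6 were higher at an unadjusted p under 0.05 (limma), where 11.4% of all genes were, with a median of 0.22. Il7r, Cd69, Itgae, Cxcr6 and Cd44 were among them. Il7r, the receptor of the survival factor IL-7, had the smallest adjusted p of them (difference 0.40, adjusted p = 0.0666), and Itgae, which binds T cells to epithelium, differed by 0.27 (adjusted p = 0.267). In the comparisons of 12 with 3 months and of 24 with 12 months, 0 genes of these 5 lists passed the adjusted threshold. Of all genes 0.250% and 0.00310% passed there.

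**Figure D4:**
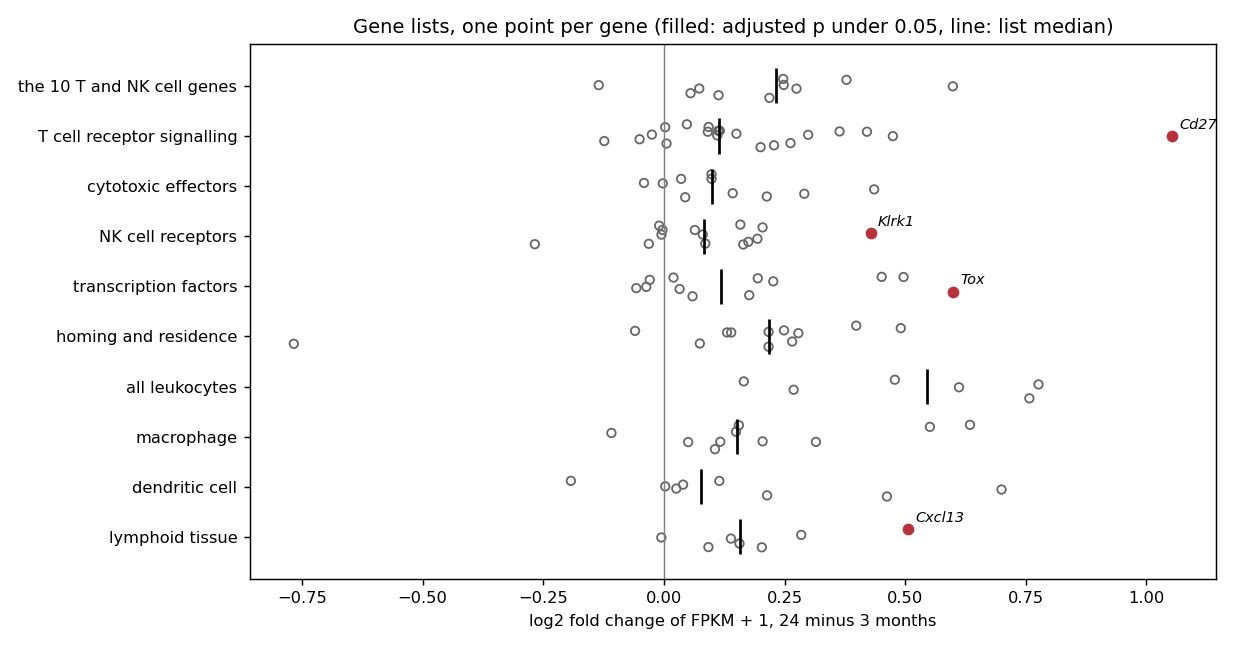
Log2 fold change of FPKM + 1 at 24 minus 3 months (horizontal axis) for the genes of 10 lists (vertical axis), with 1 point per gene, filled at an adjusted p under 0.05, and a line at the list median. The medians of the 10 lists are above 0, between 0.08 and 0.55, and Cd27, Klrk1, Tox and Cxcl13 are the filled points.

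Markers of other leukocytes were measured beside these genes. Of 6 genes common to all leukocytes 0 passed at 24 against 3 months, where 1.22% of all genes did. All 6 fold changes were positive, where 63.0% of all genes were, with a median of 0.55. Of these, 2 were higher at an unadjusted p under 0.05 (limma), where 11.4% of all genes were. Ptprc (CD45) was between 0.830 and 4.05 FPKM at 3 months, 2.04 and 6.82 at 12 months, and 3.24 and 5.87 at 24 months. Of 10 B and plasma cell markers 2 were higher and 0 lower, where 1.22% of all genes passed in either direction, with a median of 0.40. At an unadjusted p under 0.05 (limma) 8 of 10 were higher, where 11.4% of all genes were. The heavy chain gene Ighm was higher by 2.63 (limma adjusted p = 0.0306). The summed B cell markers were between 11.9 and 103 FPKM at 3 months, 71.6 and 476 at 12 months, and 106 and 246 at 24 months. Their part in the values of the T and NK cell genes was not tested.

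Of 7 markers of lymph node and lymphoid tissue 1 was higher at 24 months, where 1.22% of all genes passed in either direction. It was Cxcl13, which attracts B cells (0.51, limma adjusted p = 0.0315). The list summed to between 3.88 and 6.66 FPKM at 3 months and between 5.09 and 7.28 at 24 months. Madcam1 was listed at 0 in all 24-month mice. The calls of Ighm and Cxcl13 were lost in 8 and 10 of 17 other settings (limma). Of 10 macrophage markers, 8 dendritic cell markers, 7 neutrophil markers and 6 red blood cell markers 0 passed, with medians of 0.15, 0.08, -0.04 and -0.50. At an unadjusted p under 0.05 (limma) there were 1, 3, 0 and 0, against 14.9% of all genes. The red cell markers summed to between 491 and 1402 FPKM at 3 months and between 266 and 1039 at 24 months. Of 6 fat and adrenal markers and 9 kidney epithelium markers 0 passed, with medians of 0.06 and -0.08. In each of these lists 1 gene had an unadjusted p under 0.05 (limma), against 14.9% of all genes. The part of these cell types in the results above was not tested.

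The genes most like the CD3 genes over the 15 mice were described by Pearson's r between log2(FPKM + 0.1) of each of 21122 other genes and the mean of Cd3d, Cd3e and Cd3g. The 6 highest were Csf2rb (r = 0.94), a chain shared by cytokine receptors of myeloid cells, Stambpl1 (0.91), a deubiquitinase, Hmcn2 (0.89), an extracellular matrix protein, Map4k1 (0.89), a kinase of blood cells that acts in T cell receptor signalling, Bin2 (0.88), a leukocyte membrane protein, and RP23-424C4.8 (0.87). After centring each age they were between 0.84 and 0.96. The points share library, depth and age, and no test was made. Of the listed genes of other cell types and functions, Flt3 (0.87), Ccl5 (0.86) and Itgal (0.86) stood nearest. Cd27, Tox and Klrk1, the called T and NK cell genes, were less like the CD3 genes, each with a lower r than Il7r (0.65).

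None of the 11929 deposited circular RNAs had one of the 10 genes as host. Of 68 other genes in the 5 T and NK cell lists 4 hosted 1 each, and Bcl11b, Itgae and Prkcq were among them.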

How the data were processed

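RNA of kidney tissue from 15 mice was sequenced with 1 library per mouse. The labels describe removal of ribosomal RNA, whereas the methods of the study describe oligo(dT) beads and speak of pooled RNA; each mouse has its own column. The authors used Cutadapt for trimming, Bowtie2 and HISAT2 for mapping to GRCm38 with Ensembl annotation, and StringTie for assembly and quantification. They deposited FPKM and mean coverage per transcript, and the deposited coverage is a signal proportional to reads. For circular RNAs the authors deposited estimated counts and FPKM, of which only the host genes and the estimated counts were used here. How reads of overlapping transcripts are divided decides the FPKM of a gene whose transcripts differ in length.

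The FPKM of 111596 of 129029 transcript rows (class codes =, c, j or o) was summed by gene name. Coverage divided by FPKM gave the aligned bases of each library, 5.03 to 8.03 Gb. Coverage times length, divided by 151, gave reads. At 151 bases 59.8% of 79901 low values of genes with 1 transcript were whole within 0.02 reads, and at 150 bases 28.9% were. Because not nearly all were whole, no count test was used and no counting interval is given. The precision is that of 5 mice per age.

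limma 3.58.1 (lmFit, eBayes with trend = TRUE, R 4.3.3) was run on log2(FPKM + 1) with the mice of both ages compared, over genes above 0 in at least 1 of them, with Benjamini-Hochberg adjustment over all genes and a threshold of 0.05. Ratios used the exact permutation test over 252 assignments of mice, adjusted over 9 tests. The scripts (Python 3.11.15) were tested on simulated data. The 10 genes and the 14 other lists were chosen with earlier results of these data known. The genes named are the 10, the list genes that passed, and the 6 genes of highest r with the CD3 genes. List genes given beside them that did not pass were picked for their known roles or, for the homing genes, Cst7 and Foxp3, after their values were seen. Some list genes are not reported here.

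Alternatives were a pseudocount of 0.1, a filter of 0.1 FPKM in 5 mice, TPM, one fit of all 15 mice, robust eBayes, reference transcripts only, a call rule of unadjusted p under 0.05 with an absolute log2 fold change above 1, and each mouse left out. Reads per Gb in place of FPKM was chosen after seeing the data. Promoters came from RefSeq (GRCm38.p6), and motifs were searched on both strands.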

Additional observations from a re-analysis of the deposited data

Results flagged for a closer look

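Gzma in 12-month replicate 17 stood far from the other 4 mice of its age, at 0.389 FPKM against 0.0524 to 0.144. The gap took 0.728 of the range of the 5 mice, past the limit of 0.71 (Dixon). It was 1 of 30 groups of 5 mice examined, and chance gives such a mouse in about 1 of 20 groups. The same mouse was the highest of its age for 6 of the 10 genes.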

How the results depend on the processing

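Over the 10 genes and the 3 comparisons, 476 of 509 values under other settings kept their sign, 33 turned it, and 0 passed an adjusted p of 0.05, with 0.0803 the smallest. The number of the 10 genes called was 0 under each setting, and from 0 to 0 with each mouse left out. The call rule with a fold change could not be met by Cd3d, Cd8a, Cd8b1, Gzma and Gzmk, which were below 1 FPKM in all mice. Those at an unadjusted p under 0.05 numbered 0 to 3 (24 against 3 months), 1 to 3 (12 against 3) and 0 to 1 (24 against 12) with each mouse left out, and 1 at 12 against 3 months with all 15 mice in one fit. For 24 against 3 months the number was 0 without 3-month replicate 5, 6 or 8 or 24-month replicate 31, 32 or 33, 2 without 3-month replicate 9 and 3 without 24-month replicate 34. For 12 against 3 months it was 1 without 3-month replicate 8 and 3 without replicate 9 (limma). For 24 against 12 months it was 1 without 24-month replicate 34 or 35.

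All genes called at 24 against 3 months numbered 663 with all 15 mice, 239 with a robust prior, 190 with reference transcripts, 166 by the call rule with a fold change, and 109 (without 3-month replicate 9) to 411 (without 24-month replicate 32) with each mouse left out, where the other 8 mice gave 124 to 209. At 12 against 3 months these were 299, 24, 27, 158 and 12 to 70, lowest without 3-month replicate 5 or 6. At 24 against 12 months they were 3 with a pseudocount of 0.1, 0 with all 15 mice, 3 with reads per Gb, 55 by the call rule and 1 to 7 with each mouse left out, highest without 24-month replicate 31.

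Log2 fold changes near 0 turned their sign. At 12 against 3 months, with a pseudocount of 0.1, Gzma came to 0.0061 and Nkg7 to 0.049, and with reads per Gb Nkg7 came to 0.013. At 24 against 12 months Cd3e came to -0.036 with that pseudocount and to -0.20 with reads per Gb, Lck to -0.0013 with reads per Gb, and Cd4 to 0.018 with TPM. With each mouse left out, the ranges at 12 against 3 months were -0.0033 to 0.093 for Cd3d, -0.11 to 0.043 for Gzma and -0.20 to 0.065 for Nkg7. At 24 against 12 months they were -0.086 to 0.16 for Cd3e, -0.0100 to 0.17 for Cd3g, -0.095 to 0.045 for Cd4, -0.14 to 0.017 for Cd8a and -0.10 to 0.080 for Cd8b1. At 24 against 3 months the range was -0.023 to 0.13 for Cd8a, with the negative value without replicate 32.

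The log2 ratio of Gzmk to Gzma differed between 12 and 3 months by 0.017 with a pseudocount of 1 and by -0.38 to 0.29 with each mouse left out. Between 24 and 12 months the ranges were -0.42 to 0.029 for Cd8a to Cd4 and -0.31 to 0.31 for Cd8a to Cd8b1. The cause of these changes was not tested. No paired analysis was possible because the ages share no replicate numbers. Depth limits Gzma, Gzmk and Cd3d most, with medians of 4, 5.73 and 13.4 reads per mouse, and 5 mice per age limit all of them.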
